A study of Nematostella vectensis with 33 samples.

Results

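A set of 164 genes of the sea anemone Nematostella vectensis was described, selected on low transcript levels in whole polyps given the cyclic dinucleotide 2'3'-cGAMP. A gene entered when the mean log2(value + 1) of the 2 libraries from 2'3'-cGAMP polyps lay at least 3 below that of the 2 untreated libraries, and when both untreated values were at least 100. The set made up 164 of the 21260 genes in the polyp table, or 1.90% of the 8623 genes with both untreated values at least 100. Its low level in 2'3'-cGAMP polyps is therefore how it was found, and it is given below as a description without a test.

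The polyp groups held 2 libraries each: animals kept for 24 h in 500 µM of 2'3'-cGAMP, of 3'3'-cGAMP, of c-di-GMP, or of c-di-AMP, and untreated animals. Embryos were microinjected with short hairpin RNAs (shRNAs) and kept for 4 h in 100 µM 2'3'-cGAMP, or left untreated. The STING experiment held 2 libraries each of GFP shRNA, STING shRNA 1 and STING shRNA 2 embryos, with 2'3'-cGAMP and untreated. A separate experiment held 2 libraries each of NF-kB shRNA 1, NF-kB shRNA 2, STAT shRNA 1 and STAT shRNA 2 embryos and 3 libraries of GFP shRNA embryos, all given 2'3'-cGAMP. Every embryo thus carried an injected shRNA, with GFP as the control target, and the labels state neither a strain nor a stage. The labels also do not say whether the libraries of a group came from separate animals or cultures, so every p-value below measures only the spread between these libraries.

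Cyclic dinucleotides are small second messengers of bacteria and animals. In animals 2'3'-cGAMP is made by the enzyme cGAS upon sensing DNA and binds the receptor STING, which in vertebrates leads to activity of NF-kB and interferon genes. 2'3'-cGAMP and 3'3'-cGAMP hold the same bases and differ in a phosphodiester linkage, whereas c-di-GMP and c-di-AMP, known mainly from bacteria, hold a pair of equal bases. The genes of the set are placeholders in the reference: 145 of 164 were matched to a RefSeq symbol of the LOC type (assembly jaNemVect1.1), 0 of these had another symbol, and 19 are given by their NCBI Gene identifier alone. No function can therefore be stated for them here, nor were the shRNA targets or markers of any cell type identified, so the depletion of the targeted transcripts was not analysed here.

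The values are normalized counts. Polyp libraries had an estimated depth between 9.37 and 17.4 M (mega) reads. Deposited totals were 22.3 and 22.4 M in 2'3'-cGAMP polyps, against 9.56 to 10.6 M in the 8 other polyp libraries, so the scaling matters for a set defined as low. With the deposited scaling the median of all tested genes differed by -0.10 between 2'3'-cGAMP and untreated polyps and that of the set by -3.56. With equal library totals the medians were -1.21 and -4.67, and 861 genes, among them all 164, met the rule. In the STING experiment the GFP shRNA untreated library 1 and 2'3'-cGAMP library 4 had 21.6% and 14.4% of genes at 0, against 3.99 to 11.3% in the other 10 libraries.

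In 2'3'-cGAMP polyps the genes of the set stood low in the table. The median gene stood at percentile 32.8 of all listed genes by its mean level in 2'3'-cGAMP polyps and at percentile 73.9 in untreated polyps. Together the genes took 0.0593% and 0.0612% of the deposited total in the 2'3'-cGAMP libraries, against 1.94% and 1.54% in the untreated libraries. The median level was 19.1 and 20.9 in the 2'3'-cGAMP libraries, and lay between 162 and 252 in the 8 others. RNA came from whole animals, so fewer cells that express a gene and less RNA per cell cannot be told apart.

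**Figure D1:**
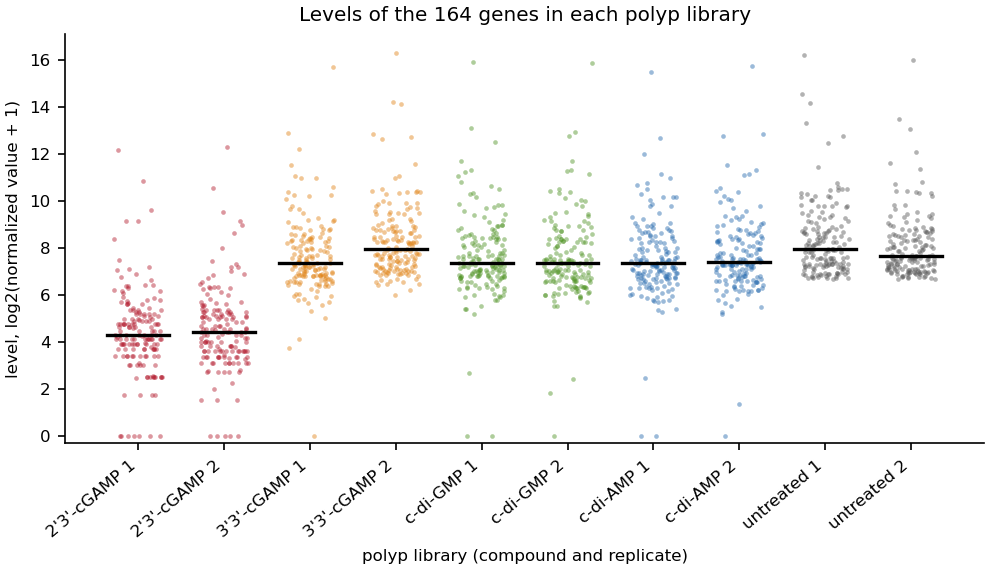
Level of each of the 164 genes, log2(normalized value + 1), in each of the 10 polyp libraries; points are genes and black lines are medians. The medians of both 2'3'-cGAMP libraries sit below all others because the rule chose the genes that way, and those of the other 8 libraries lie between 162 and 252 normalized counts.

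The log2 difference between 2'3'-cGAMP and untreated polyps ran from -6.02 to -3.002 in the 163 genes with a value above 0 in at least 1 of the 2'3'-cGAMP libraries, with a median of -3.56 over the set. No value is given for NCBI Gene 116604992, listed at 0 in both. It was at or below -5 in 12 genes, between -5 and -4 in 33, between -4 and -3.5 in 41 and above -3.5 in 78, so that many of the genes lie close to the threshold. Just inside were LOC5521497 (-3.0065), LOC5521315 (-3.0048) and LOC5511956 (-3.0019). Just outside were LOC116604671 (-2.9958), LOC5519269 (-2.9888) and LOC5503446 (-2.9863). In 160 of 164 genes both 2'3'-cGAMP libraries lay below each of the 8 other polyp libraries. That count follows in large part from the rule and is a description only. It held for 31.4% of all tested genes, which include genes too low in untreated polyps to enter the set. The 4 exceptions were NCBI Gene 5501457, NCBI Gene 5508206, NCBI Gene 116621577 and LOC5517287.

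The lowest levels relative to untreated polyps were found in 12 genes. NCBI Gene 116604992 stood at 0 in each library of 2'3'-cGAMP polyps, against 161 and 125 in untreated polyps, and no fold is given for it there. It was low in other compounds as well, with log2 differences from untreated polyps of -4.88 in c-di-GMP, -5.24 in c-di-AMP and -1.46 in 3'3'-cGAMP. NCBI Gene 116617477 had 21.5 and 24.7 in 2'3'-cGAMP polyps, against 1747 and 1388 in untreated polyps, a log2 difference of -6.02. LOC5510380 had 11.9 and 28.5 in 2'3'-cGAMP polyps, against 875 and 690 in untreated polyps (-5.32). In LOC5510380 the libraries of 3'3'-cGAMP, c-di-GMP and c-di-AMP polyps all lay between 820 and 942, above the lower untreated library. LOC5503220 was similar, with 9.54 and 13.3 in 2'3'-cGAMP polyps, 392 to 597 in the other compounds and 483 and 421 in untreated polyps (-5.20). The other 8 of the 12 largest differences were NCBI Gene 5501457, NCBI Gene 5508206, LOC116620211, LOC116616248, LOC5501815, LOC5514701, LOC5520357 and LOC5521621, from -5.81 to -5.02.

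The genes with the highest untreated level were far more abundant than the rest. LOC116616309 had 4673 and 5053 in 2'3'-cGAMP polyps, against 75224 and 65916 in untreated polyps, a log2 difference of -3.86. It alone stood at an untreated mean of 70570, whereas the median of the set was 233 and the lowest 105. LOC5511326 had 1833 and 1487 in 2'3'-cGAMP polyps, against 24232 and 8443 in untreated polyps (-3.11). LOC116618501 had 794 and 749 in 2'3'-cGAMP polyps, against 18424 and 11523 in untreated polyps (-4.24). These 3 genes remained well detected in 2'3'-cGAMP polyps. The next in order were LOC5517078, LOC116620119, LOC116614941, LOC5514926, NCBI Gene 116618502, NCBI Gene 116617477, LOC5507923, LOC5503182 and LOC116611456, with differences between -6.02 and -3.06.

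At the low end the values rest on few reads. The median gene of the set corresponded to about 8 and 11 reads in the 2'3'-cGAMP libraries, and 6 genes had at most 3 reads in both. In 11 genes 1 or both 2'3'-cGAMP libraries were listed at 0. The 2'3'-cGAMP libraries differed from each other by more than 1 on the log2 scale in 50 genes (30.5%), against 2.61% of the genes with both untreated values at least 100. Of the 4 library by library differences per gene, all were at or below -3 in 77 genes and at or below -2 in 153.

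The other compounds were set beside untreated polyps, which share their libraries with the rule, so these values are given side by side and support nothing on their own. The median log2 difference of the set was -0.16 in 3'3'-cGAMP polyps, -0.31 in c-di-GMP polyps and -0.33 in c-di-AMP polyps. In limma's test with Benjamini-Hochberg adjustment, 0 of 164 genes were called in each compound, against 0.054% of all tested genes in 3'3'-cGAMP, 0.0% in c-di-GMP and 0.789% in c-di-AMP. At an unadjusted p below 0.05 stood 2 genes in 3'3'-cGAMP (1.22%, against 4.32% of all tested genes), 47 in c-di-GMP (28.7%, against 10.1%) and 47 in c-di-AMP (28.7%, against 10.2%). The highest differences were 0.44 in 3'3'-cGAMP (NCBI Gene 116617211), 0.63 in c-di-GMP (the same gene) and 0.47 in c-di-AMP (LOC5520494). No gene of the set thus lay 1 or more above untreated polyps on the log2 scale in any of the 3 compounds.

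By their level in c-di-GMP and c-di-AMP polyps the genes spread over a wide range. In 99 genes the mean of the 4 c-di-GMP and c-di-AMP libraries lay within 0.5 of untreated polyps on the log2 scale. LOC5502574 was such a gene, with 85.8 and 79.7 in 2'3'-cGAMP polyps, 1144 to 1309 in the 4 libraries and 1269 and 1185 in untreated polyps. In 36 genes (22.0%) that mean lay at least 1 below untreated polyps, as it did in 2.42% of the genes with both untreated values at least 100. The untreated libraries are those of the rule, so the share in the set follows in part from how it was chosen. These 36 genes were singled out after their values were seen and get no test.

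Within these 36 genes the 3'3'-cGAMP and the untreated libraries stood apart from their partner, while those of 2'3'-cGAMP, c-di-GMP and c-di-AMP lay close together in the median. The median level was 19.1 and 23.1 in the 2'3'-cGAMP libraries, 91.5 and 392 in 3'3'-cGAMP libraries 1 and 2, 84.1 and 88.9 in c-di-GMP, 78.9 and 97.1 in c-di-AMP, and 407 and 221 in untreated libraries 1 and 2. Library 2 of 3'3'-cGAMP lay above all 4 c-di-GMP and c-di-AMP libraries in 36 of 36 genes, whereas library 1 lay below both untreated libraries in 36 of 36. Untreated library 1 lay above library 2 in 34 of the 36. It lay below library 2 in 53 of all 164 genes, and in 3717 of the 8623 genes with both untreated values at least 100. The 36 genes were chosen for low c-di-GMP and c-di-AMP libraries against untreated ones. These orderings follow in part from that choice, and for 3'3'-cGAMP the counts over all genes are not given. In the other 128 genes the medians were 19.07 and 18.97 in 2'3'-cGAMP, 182 and 221 in 3'3'-cGAMP, 186 and 178 in c-di-GMP, 176 and 187 in c-di-AMP, and 227 and 197 in untreated polyps.

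Single genes show this most plainly. LOC5512518 had 26.2 and 51.2 in 2'3'-cGAMP polyps, 90.1 and 951 in 3'3'-cGAMP, 76.6 and 96.0 in c-di-GMP, 103 and 72.1 in c-di-AMP, and 979 and 235 in untreated polyps. LOC5507333 had 31.0 and 20.9 in 2'3'-cGAMP polyps, 87.9 and 702 in 3'3'-cGAMP, 62.0 and 61.1 in c-di-GMP, 55.3 and 77.5 in c-di-AMP, and 889 and 171 in untreated polyps. Both were high in 3'3'-cGAMP library 2 and untreated library 1 and low in 3'3'-cGAMP library 1, and both were chosen after their values were seen. NCBI Gene 116621577 had 40.5 and 15.2 in 2'3'-cGAMP polyps, 38.6 and 897 in 3'3'-cGAMP, 45.6 and 62.9 in c-di-GMP, 41.7 and 56.4 in c-di-AMP, and 1292 and 358 in untreated polyps. NCBI Gene 5508206 was listed at 0 in 1 of the 2'3'-cGAMP libraries and had 20.9 in the other, was listed at 0 in 3'3'-cGAMP library 1 and both c-di-GMP libraries, and had 301 in 3'3'-cGAMP library 2 and 352 and 189 in untreated polyps. NCBI Gene 5501457 had 0 and 24.7 in 2'3'-cGAMP polyps, 16.8 and 300 in 3'3'-cGAMP, 0 and 4.36 in c-di-GMP, 0 and 0 in c-di-AMP, and 195 and 414 in untreated polyps. What sets these libraries apart was not tested.

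**Figure D2:**
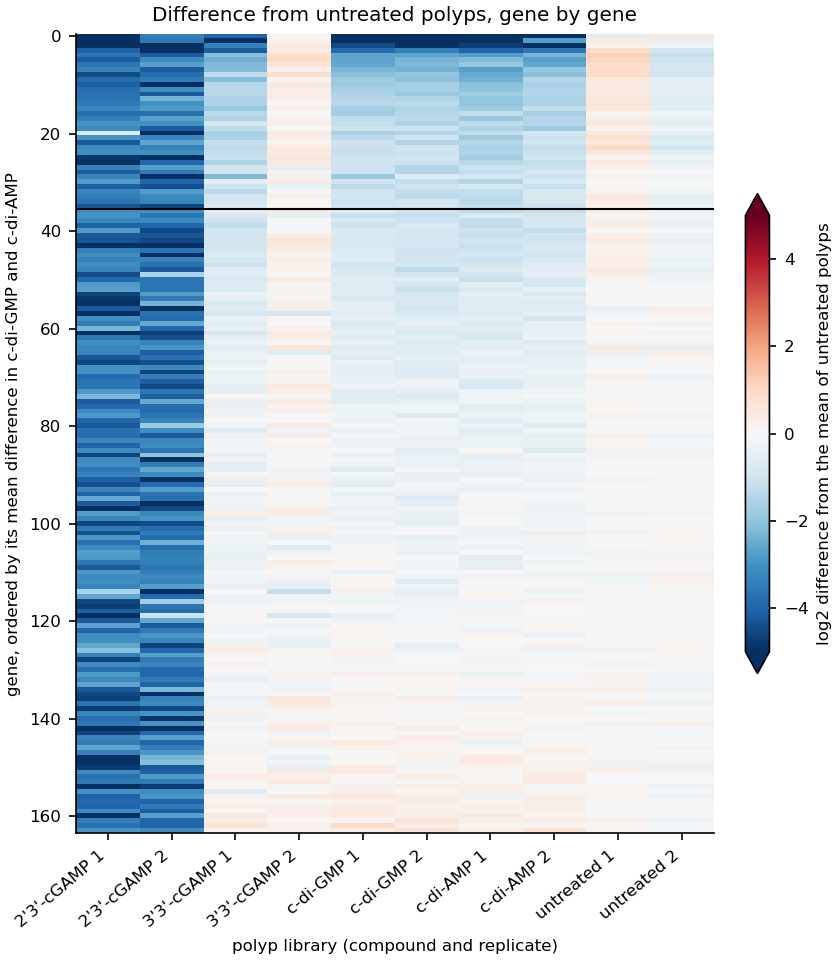
Log2 difference of each gene (rows, ordered by the mean of its 4 c-di-GMP and c-di-AMP libraries) from the mean of untreated polyps, in each of the 10 polyp libraries. Above the black line lie the 36 genes at least 1 lower in c-di-GMP and c-di-AMP, where 3'3'-cGAMP library 1 is blue and library 2 is near or above untreated; colours are capped at 5 in either direction.

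Comparisons among the 3 other compounds, all at the same dose and time, set no library of the rule against another. Their p-values still draw on the spread within all polyp groups, those of the rule included. In 30.5% of the set the 2'3'-cGAMP libraries differed by more than 1, against 2.61% of the genes with both untreated values at least 100. The counts of genes called are thus not independent of the rule. In c-di-AMP set against c-di-GMP polyps, 0 of 164 genes were called in limma's test with Benjamini-Hochberg adjustment, against 0.708% of all tested genes, and 1 gene (0.61%) had an unadjusted p below 0.05, against 3.84% of all. The median difference of the set was -0.00088 on the log2 scale, with a 95% interval that reached 0.72 to either side in the median gene. In 3'3'-cGAMP polyps set against c-di-GMP polyps 0 were called, against 0.0756% of all tested genes, and 13 (7.93%) had an unadjusted p below 0.05, against 5.85% of all. Set against c-di-AMP polyps, 3'3'-cGAMP polyps had 0 called, against 0.0054% of all tested genes, and 16 (9.76%) had an unadjusted p below 0.05, against 5.82% of all. The median difference in these was 0.24 in both comparisons, against 0.01 and -0.01 over all tested genes. Neither count shows that the compounds act alike, and 1 library decided both. Without 3'3'-cGAMP library 1, 14 genes were called higher in 3'3'-cGAMP than in c-di-AMP polyps and 5 higher than in c-di-GMP polyps, among 262 and 128 called of all 18428 genes then tested. The 5 were LOC5514765, LOC5522011, NCBI Gene 116604992, NCBI Gene 116617477 and NCBI Gene 116621577, with differences from 1.23 to 5.38, and the lone library was then assumed to vary like the other groups.

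In embryos given 2'3'-cGAMP for 4 h, part of the set was lower as well. In GFP shRNA embryos 161 of the 164 genes were tested and 33 were called lower (20.5%) in limma's test with Benjamini-Hochberg adjustment, against 1.28% of all 20879 tested genes, while 0 were called higher, against 4.52% of all. The median log2 change of the set was -0.86, against 0.04 over all tested genes, and 143 of 161 genes lay below 0 (88.8%), against 47.4% of all. In 91 genes (56.5%) each 2'3'-cGAMP library lay below each untreated library, against 16.6% of all tested genes. The shares of all tested genes, here and for STING shRNA embryos below, were not matched for level. The median gene of the set stood at percentile 79.1 in untreated GFP shRNA embryos. Embryo libraries played no part in the rule, but they differ from polyps in stage, dose, time, RNA extraction and library kit, and these cannot be told apart.

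**Figure D3:**
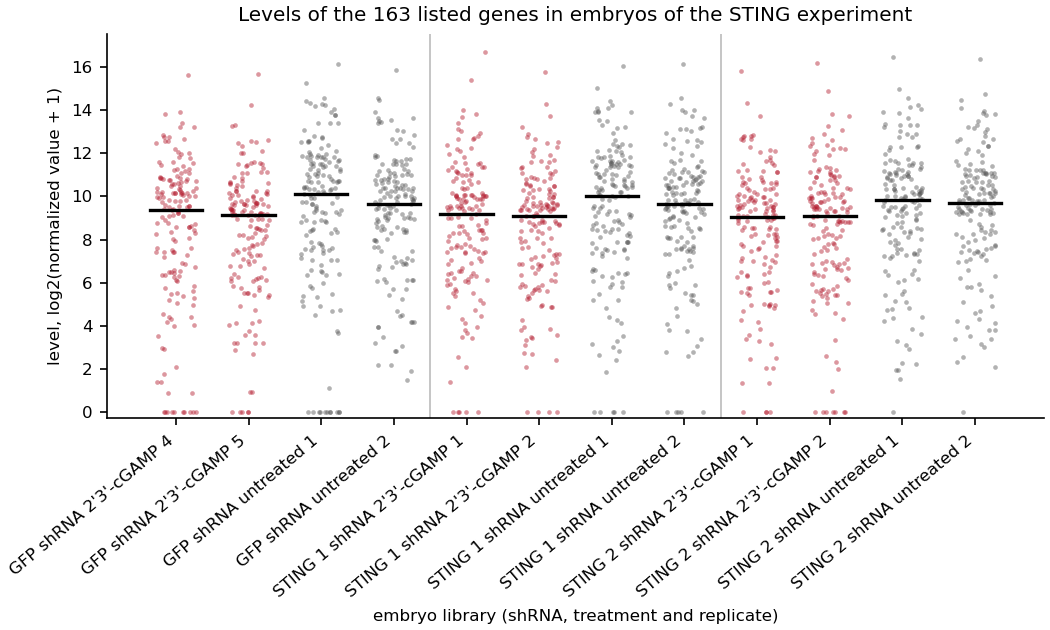
Level of each listed gene of the set, log2(normalized value + 1), in the 12 embryo libraries of the STING experiment, 2'3'-cGAMP in red and untreated in grey; black lines are medians. For each shRNA both 2'3'-cGAMP medians lie below both untreated medians.

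In the same embryos the median level of the set was 652 and 560 in the 2'3'-cGAMP libraries, against 1108 and 811 in the untreated libraries. By its mean level, the median gene stood at percentile 68.4 in 2'3'-cGAMP embryos and at 79.1 in untreated embryos. The largest change called was in LOC5514386, with 67.8 and 45.4 in 2'3'-cGAMP embryos, against 958 and 506 in untreated embryos (log2 change -3.63 ± 0.63, SE; limma adjusted p 0.00586). LOC5515924 had 6.71 and 17.8 in 2'3'-cGAMP embryos, against 185 and 114 in untreated embryos (-3.60 ± 0.70; limma adjusted p 0.0119). LOC5510380, which also had a log2 difference of -5.32 in polyps, had 32.7 and 41.8 in 2'3'-cGAMP embryos, against 318 and 311 in untreated embryos (-3.05 ± 0.59; limma adjusted p 0.011). In these 3 genes the groups did not overlap. The others named by size were LOC116601533 (-2.66), LOC5499582 (-2.22) and LOC5514701 (-2.11).

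The number called in GFP shRNA embryos rested on few libraries. Leaving out untreated library 1 left 7 genes called lower and leaving out 2'3'-cGAMP library 4 left 18, whereas leaving out untreated library 2 gave 44 lower and 2 higher. Without both libraries with most genes at 0, 3 genes were called lower (LOC5506097, LOC5508798 and LOC5514701) and the median change was -0.79. That fit sets 1 library against 1, so its spread comes wholly from the other groups and the lone libraries are assumed to vary like them, as is the lone library wherever 1 of a pair was left out. A fit of the GFP shRNA libraries alone called 0. For this fit and those with libraries left out, here and below, counts over all tested genes are not given. A loss of calls particular to the set therefore cannot be told from a general loss of calls. Of the 6 genes named, each lost its call without at least 1 of the 4 libraries, with limma adjusted p-values of at most 0.139, while the change stayed between -4.25 and -1.46. With equal library totals 45 genes were called lower, and the medians were -1.14 for the set and -0.22 over all tested genes. The number called lower among all 20879 tested genes rose as well, to 545 from 268 with the deposited scaling.

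In STING shRNA embryos, taken as the mean of both hairpins, 52 of 161 genes were called lower with 2'3'-cGAMP (32.3%) in limma's test with Benjamini-Hochberg adjustment, against 3.78% of all tested genes, and 0 higher, against 7.1% of all. The median log2 change was -0.75, against 0.04 over all tested genes, and 142 genes lay below 0. In 83 genes (51.6%) each of the 4 treated libraries lay below each of the 4 untreated libraries, against 10.9% of all tested genes. With 4 libraries against 4, the 95% interval reached 0.70 to either side in the median gene, against 0.996 in GFP shRNA embryos with 2 against 2. Hairpin 1 alone gave 24 genes (14.9%, against 5.36% of all tested genes called in either direction) and hairpin 2 alone 16 (9.94%, against 3.99%), all lower. Leaving out STING shRNA 2 untreated library 1 gave 32 and leaving out its 2'3'-cGAMP library 2 gave 34.

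Of the set, LOC5506097 had the smallest p-value with both shRNAs. It had 428, 602, 726 and 593 in STING shRNA embryos with 2'3'-cGAMP, against 2858, 1854, 1971 and 2399 in untreated ones (log2 change -1.95 ± 0.20, SE; limma adjusted p 0.000105). In GFP shRNA embryos it had 781 and 720 with 2'3'-cGAMP, against 3665 and 2866 untreated (-2.11 ± 0.29; limma adjusted p 0.00125). LOC5514386 had 194, 40.1, 128 and 96.0 in STING shRNA embryos with 2'3'-cGAMP, against 640, 615, 719 and 628 in untreated ones (-2.70 ± 0.45; limma adjusted p 0.00267). The treated libraries of both genes lay below every untreated library. LOC5510380 (-2.36), LOC5520494 (-2.21), LOC5514701 (-2.19) and LOC5509070 (-1.98) followed, and the call of all 6 genes held whichever of the 8 libraries was left out.

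Of the genes called lower, 32 were called with both shRNAs, which is 97.0% of the 33 in GFP shRNA embryos and 61.5% of the 52 in STING shRNA embryos. Over all tested genes 268 and 789 were called lower, and how many of them overlap is not given. Both calls also draw on the same spread from 1 fit. The overlap is thus a description and cannot be read as particular to the set. The response was compared between shRNAs by the interaction of shRNA and treatment. In limma's test with Benjamini-Hochberg adjustment 0 of 161 genes were called, as were 0.0% of all tested genes, and 2 (1.24%) had an unadjusted p below 0.05, against 1.49% of all. The median difference, STING shRNA response minus GFP shRNA response, was 0.14 on the log2 scale, against -0.03 over all tested genes. The 95% interval reached 1.22 to either side in the median gene. On simulated data the test for this difference recovered 0% of 2-fold and 10% of 4-fold lower genes. There 200 of 20879 genes were changed, drawn from all genes with a mean of at least 50, so recovery within the set may differ. A call count of 0 thus does not show that the responses were equal. When GFP shRNA untreated library 2 was left out, 2 genes passed (NCBI Gene 5520979 and NCBI Gene 116612824, -4.50 and -4.54). The depletion of STING in these embryos is not known from the data used here.

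Across 161 genes, Spearman's rho between the polyp difference and the embryo change was 0.05 for GFP shRNA and -0.07 for STING shRNA embryos. It is given as a description, since the genes share their libraries and the rule admits only polyp differences of -3 or lower, near which many of the genes lie. Among the most abundant genes, LOC116616309 had 50665 and 53212 in GFP shRNA embryos with 2'3'-cGAMP, against 72058 and 60059 untreated, and LOC116618501 had 15295 and 19436, against 17192 and 23089. Neither was called with either shRNA. LOC5511326, with 24232 and 8443 in untreated polyps, had only 38.4 and 75.1 in GFP shRNA embryos with 2'3'-cGAMP, against 40.7 and 125 untreated, a level set across separately normalized tables. Of the 36 genes that were also low in c-di-GMP and c-di-AMP polyps, 5 of 35 tested were called lower in GFP shRNA embryos and 8 in STING shRNA embryos. Of the other genes, 28 of 126 and 44 of 126 were called, and of all tested genes 1.28% and 3.78%. The 36 genes were singled out after their polyp values were seen, and the difference between these counts was not tested.

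**Figure D4:**
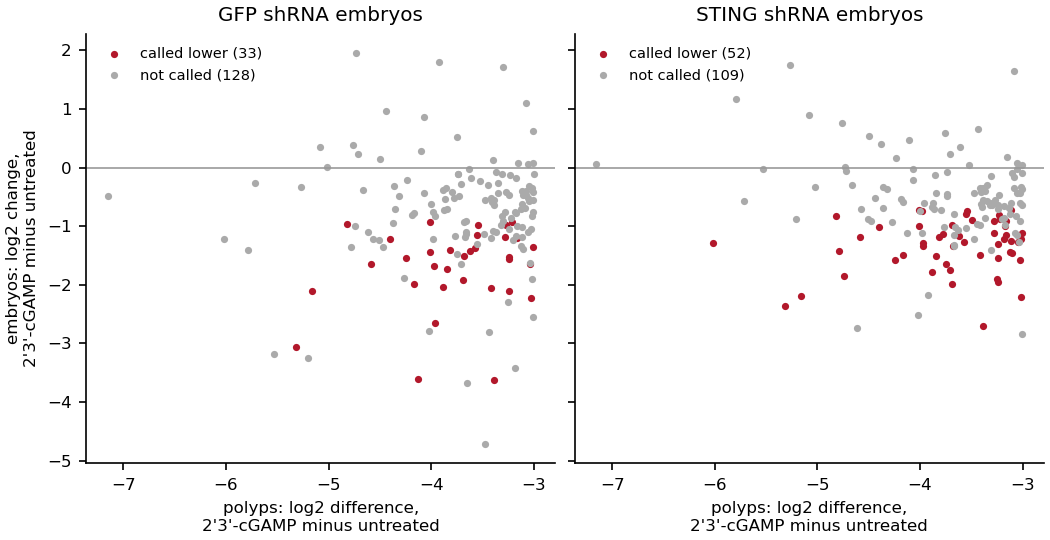
Log2 change in embryos (y, 2'3'-cGAMP minus untreated) against the log2 difference in polyps (x, same direction) for the 161 genes tested in the STING experiment, GFP shRNA left and STING shRNA right; red points are called lower (33 and 52). Most points lie below 0 on y; Spearman's rho is 0.05 and -0.07 over a range of x that the rule ends at -3.

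The NF-kB and STAT experiment held no untreated embryos, so it compares levels under 2'3'-cGAMP only. Of the set, 153 genes were tested. NF-kB shRNA embryos, as the mean of both hairpins, had 5 genes called against GFP shRNA embryos in limma's test with Benjamini-Hochberg adjustment (3.27%), against 2.77% of all 20058 tested genes, a share near the background. Lower were LOC116619810, LOC5508366 and LOC5508180, which is 3 genes against 1.57% of all, and higher were LOC5514765 and LOC5517287, 2 genes against 1.2% of all. With TMM factors or quantile scaling the 3 lower genes were still called and the 2 higher ones were not. With each of the 7 libraries left out in turn, LOC116619810 was called in 6 fits (limma adjusted p at most 0.0512), LOC5508366 in 3 (at most 0.134), LOC5508180 in 2 (at most 0.149), LOC5514765 in 1 (at most 0.222) and LOC5517287 in 1 (at most 0.137).

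LOC116619810 had 767, 999, 311 and 353 in NF-kB shRNA embryos, against 1170, 828 and 1324 in GFP shRNA embryos (log2 change -1.01 ± 0.19, SE; limma adjusted p 0.00915). The groups overlapped, as 1 hairpin 1 library (999) reached the GFP range, while the other (767) and both hairpin 2 libraries lay below it. LOC5508366 had 1064, 1673, 602 and 738 in NF-kB shRNA embryos, against 1717, 1381 and 2141 in GFP shRNA embryos (-0.87 ± 0.20; limma adjusted p 0.0297). LOC5508180 had 525, 1044, 173 and 339 in NF-kB shRNA embryos, against 1006, 787 and 1349 in GFP shRNA embryos (-1.27 ± 0.29; limma adjusted p 0.0326). These 3 genes were also called lower with 2'3'-cGAMP in GFP and in STING shRNA embryos. LOC5514765 had 1798, 1826, 1320 and 1099 in NF-kB shRNA embryos, against 1209, 858 and 744 in GFP shRNA embryos (0.69 ± 0.17; limma adjusted p 0.0489). LOC5517287 had 1762, 1702, 1306 and 1378 in NF-kB shRNA embryos, against 1155, 1061 and 723 in GFP shRNA embryos (0.67 ± 0.17; limma adjusted p 0.0476), with no overlap.

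The median difference from GFP shRNA embryos was 0.31 with NF-kB hairpin 1 and -0.10 with hairpin 2, and the difference between hairpins was not tested. Hairpin 1 alone gave 3 genes called (1.96%, against 2.13% of all tested genes), all higher (LOC5514765, LOC5517287 and LOC116617218), and hairpin 2 alone gave 5 (3.27%, against 1.595%), all lower (LOC5508180, LOC5508366, LOC116619810, LOC5521427 and LOC5522011). The share with hairpin 1 lies near that of all genes, and the share with hairpin 2 rests on 5 genes. Counts with 1 library left out ran from 0 to 7. They were 0 without NF-kB shRNA 2 library 1, 1 without NF-kB shRNA 1 library 1, and 2 without GFP shRNA library 2 or library 3.

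**Figure D5:**
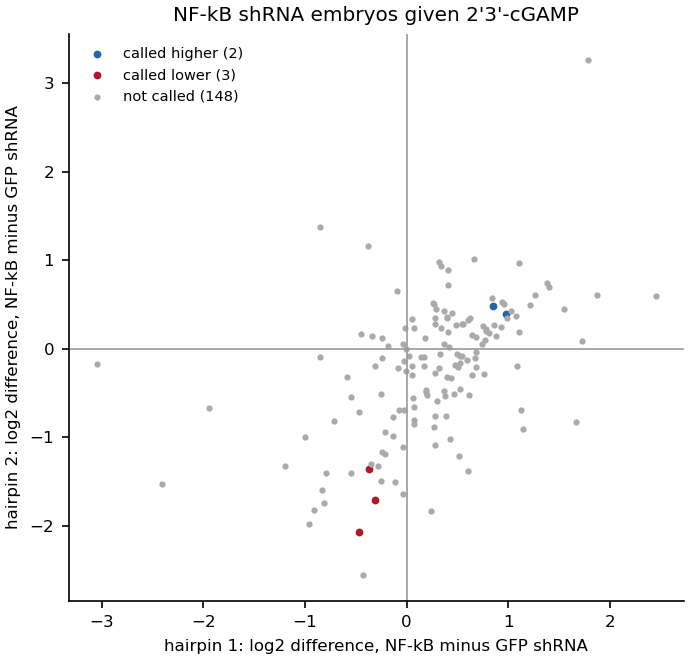
Log2 difference from GFP shRNA embryos under 2'3'-cGAMP for the 153 tested genes, NF-kB hairpin 1 (x) against hairpin 2 (y); blue points are called higher (2) and red points called lower (3) in the mean of both hairpins. The genes called lower lie closer to 0 with hairpin 1 and between -2.07 and -1.37 with hairpin 2.

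In STAT shRNA embryos 0 of 153 genes were called against GFP shRNA embryos in limma's test with Benjamini-Hochberg adjustment, against 0.00499% of all tested genes, and 10 (6.54%) had an unadjusted p below 0.05, against 5.38% of all. The median difference was 0.24, against 0.00305 over all tested genes, with 0.29 for hairpin 1 and 0.13 for hairpin 2. The 95% interval reached 0.62 to either side in the median gene. Here the median gene stood at percentile 57.1 in GFP shRNA embryos with 2'3'-cGAMP, lower than the 68.4 of the corresponding embryos of the STING experiment. Those tables were normalized separately and no test was made between them.

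The genes of the set were mostly scattered in the reference. Among the 145 matched genes, 8 (5.52%) had another gene of the set directly beside them or with 1 gene between, against 2.85% of all matched tested genes that had a gene of the set so close. The pairs were LOC5520450 with LOC5499582 and LOC5510371 with LOC5510380, directly adjacent, and LOC5512767 with LOC5512766 and LOC5507808 with LOC116614941, with 1 gene between. LOC5510371 had 26.4 and 13.4 in 2'3'-cGAMP polyps, against 249 and 248 in untreated polyps (-3.65), and its neighbour LOC5510380 differed by -5.32. Reads shared between neighbours or near-identical copies could not be separated here, as neither the strand setting nor the transcriptome is given in the sources used here.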

How the data were processed

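The values are signal, called normalized counts in the labels, in 3 tables that the authors deposited (polyps, STING experiment, NF-kB and STAT experiment; 33 libraries, 16 groups). The submitters' processing notes name FastQC 0.11.9, kallisto 0.46.1 and DESeq2 without role or order; the genome build is not given in the sources used here. Between 82.1 and 83.5% of positive polyp values under 2000 reads were whole multiples of the value of 1 read (tolerance 0.0001 read), which gave the polyp depth; in embryo tables such steps were not found and depth is unknown, so no count test was run. Each table was fitted on its own with limma 3.58.1 (R 4.3.3) on log2(value + 1), with group means, all groups in 1 fit and variances moderated with a trend. Genes with at least 10 in at least 2 libraries were tested, and two-sided p-values received Benjamini-Hochberg adjustment over all tested genes of each comparison, with calls made below an adjusted p of 0.05. Fold changes on this scale understate the change of low genes.

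The genes of the set, the comparisons and the rules for named genes were chosen with earlier results of these data known. Named were the 12 genes highest in untreated polyps, the 12 with the largest differences, the 3 on either side of the threshold, up to 6 per direction and tested comparison by size of change, and the extremes per compound; others were named after their values were seen. Planned lists by gene product, cell type, protein or promoter were not used, as the reference gives none of these. No 2 libraries held identical values. Tested on simulated data with 4-fold lower genes, the fit recovered 40% of them for GFP shRNA embryos, 70% for STING shRNA embryos, 10% for the difference in response and 80% for NF-kB shRNA embryos. In each comparison 200 genes were changed, drawn from all genes with a mean of at least 50 and not from the set. Alternatives covered the pseudocount, filter, scaling, groups in the fit, replicate block, hairpins and each library left out.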

Additional observations from a re-analysis of the deposited data

How the results depend on the processing

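The number of genes that met the rule depended most on the scaling: it was 861 with equal library totals, 119 to 170 with another pseudocount, TMM factors or quantiles, and 165 to 220 with 1 library left out. The genes themselves also changed. All 164 met the rule with equal totals, TMM factors or a pseudocount of 0.5. Of the 164, 119 met it with a pseudocount of 5, 126 with quantiles, and 130 to 153 with 1 library left out. The call counts of 0 for 3'3'-cGAMP against untreated polyps, c-di-AMP against c-di-GMP and STAT shRNA embryos were 0 under every alternative run. For c-di-AMP against untreated polyps, 1 gene was called with a pseudocount of 5, without a filter and with a mean of at least 50, and 2 with equal totals, quantiles or the compared groups alone (NCBI Gene 5501457 and NCBI Gene 116604992); for c-di-GMP 1 was called with the compared groups alone (NCBI Gene 5508206). With 1 library left out, the count ran from 0 to 5 for 3'3'-cGAMP against c-di-GMP, 0 to 14 against c-di-AMP, 7 to 46 in GFP shRNA embryos, 32 to 57 in STING shRNA embryos, 0 to 2 for the difference in response and 0 to 7 for NF-kB. In GFP shRNA embryos it was 0 with the compared groups alone and 3 when untreated library 1 and treated library 4 were both left out, an alternative chosen after seeing the data that sets 1 library against 1 and takes the spread wholly from the other groups. In STING shRNA embryos hairpin 1 gave 24 and hairpin 2 gave 16. For NF-kB it was 3 with a pseudocount of 0.5, TMM factors, quantiles, the compared groups alone or hairpin 1. With equal totals, 545 of the 1274 genes called in GFP shRNA embryos were lower, against 268 of 1211 with the deposited scaling, and 1911 of 2980 in STING shRNA embryos, against 789 of 2272. Apart from these constructions with fewer libraries, the cause was not tested.

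The labels do not say whether replicate numbers pair the libraries, and correlations of same-numbered deviations did not settle it. They were between -0.10 and 0.07 for polyps, and -0.01 and 0.13 for the embryos with NF-kB or STAT shRNAs. In the STING experiment all lay between 0.02 and 0.28, without the GFP shRNA libraries given 2'3'-cGAMP. With the replicate number as a block, 89 genes met the rule in both pairs, 1 gene was called for c-di-AMP against untreated polyps, 64 in STING shRNA embryos and 2 for NF-kB, where GFP shRNA library 3 has no partner. Counts over all tested genes are not given for the block, nor for the other pseudocounts, filters and compared groups alone. A change in calls particular to the set therefore cannot be told from a general one. No paired analysis was possible because GFP shRNA libraries share no replicate number in the labels (4 and 5 with 2'3'-cGAMP, 1 and 2 untreated), for the GFP shRNA response and the difference in response. Low values in 2'3'-cGAMP polyps limit the precision of the largest differences.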
